A study of Mus musculus with 3 samples.

Results

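The stretch of mouse chromosome 17 from 30 to 40 Mb (build mm10) was examined peak by peak in 3 single-cell ATAC-seq libraries, in which a transposase cuts open chromatin and the cut ends are counted in barcoded nuclei. Its members were all peaks with a start in that stretch: 721 of 107627 for Control, 406 of 57616 for PDGFB-WT, and for PDGFB-NLS 781 of 127094. Merging peaks that overlapped between lists gave 910 regions, out of 147229 in the genome, and 350 of the 910 were called in all 3 libraries. The stretch was chosen by its share of library counts, which was low in both PDGFB libraries beside Control, so every ratio to Control below describes these libraries and no difference was tested.

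The series comprised 1 library each for Control, for overexpression of PDGFB-WT and for overexpression of PDGFB-NLS, in a study of mouse gliomas produced by piggyBac in utero electroporation, with nuclei as the material. PDGFB is a secreted growth factor that acts through PDGF receptors, and what NLS stands for is not spelled out in the labels. Glioma is the tissue label of all 3 libraries, also of Control, but the deposited Control data are named as normal, and the labels do not say what Control received or whether it was a tumor. What a ratio to Control sets the PDGFB libraries against is therefore not certain. They give no strain, age, promoter or number of animals per library. With 1 library per group there was no replicate check, and library and condition cannot be told apart. The libraries held 2226, 7441 and 10996 barcodes (Control, PDGFB-WT, PDGFB-NLS) with a median of 13054, 821 and 2767.5 counts per barcode, and totals of 31588784, 7008951 and 31177621 counts. Between 22 and 118 barcode sequences were shared by each pair of libraries.

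Several kinds of locus lie in this stretch. Near its end the assembly holds Rn18s-rs5, a pseudogene related to 18S ribosomal RNA. Ribosomal RNA genes lie in long tandem arrays that the assembly does not hold in full, and reads from such arrays can be placed on the copies that it does hold. Near the start lies Glo1, which encodes glyoxalase 1, the enzyme that removes methylglyoxal, and the interval around Glo1 is known to be duplicated in some inbred mouse strains. Between them lies the major histocompatibility complex (MHC), whose class I and class II proteins present peptides to T cells.

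The promoters of 4 genes are shown because their regions mark different patterns. Glo1 had the lowest PDGFB-WT to Control ratio of any gene end listed in the stretch, Zfp811 (a zinc finger gene) the highest among gene promoters named here, Ier3 (an immediate early response gene) was among the regions with the lowest PDGFB-NLS ratios, and H2-D1 (a classical class I gene) was near the median of all regions in both comparisons. Each sequence is the 250 bases before the annotated start, from RefSeq on GRCm38.p6, written along the strand of the gene, and each lay wholly inside its region. Capitals mark matches on either strand to the GC box GGGCGG, the CCAAT box CCAAT and the TATA box TATAAA.
Glo1, chr17:30612660-30612909, minus strand: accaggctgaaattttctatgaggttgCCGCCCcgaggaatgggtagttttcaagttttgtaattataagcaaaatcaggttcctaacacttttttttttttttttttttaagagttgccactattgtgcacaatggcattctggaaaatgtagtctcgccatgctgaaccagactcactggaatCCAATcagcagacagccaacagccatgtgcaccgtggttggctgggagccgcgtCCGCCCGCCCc
Zfp811, chr17:32809932-32810181, minus strand: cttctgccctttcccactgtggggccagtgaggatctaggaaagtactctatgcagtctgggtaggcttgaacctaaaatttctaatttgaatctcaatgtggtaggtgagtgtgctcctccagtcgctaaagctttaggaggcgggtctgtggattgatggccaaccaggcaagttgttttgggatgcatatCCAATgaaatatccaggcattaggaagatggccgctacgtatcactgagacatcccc
Ier3, chr17:35821463-35821712, plus strand: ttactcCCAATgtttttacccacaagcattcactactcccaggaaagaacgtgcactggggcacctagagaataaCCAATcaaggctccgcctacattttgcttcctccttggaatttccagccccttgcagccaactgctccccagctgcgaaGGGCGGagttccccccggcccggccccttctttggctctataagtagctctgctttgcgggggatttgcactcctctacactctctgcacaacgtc
H2-D1, chr17:35262844-35263093, plus strand: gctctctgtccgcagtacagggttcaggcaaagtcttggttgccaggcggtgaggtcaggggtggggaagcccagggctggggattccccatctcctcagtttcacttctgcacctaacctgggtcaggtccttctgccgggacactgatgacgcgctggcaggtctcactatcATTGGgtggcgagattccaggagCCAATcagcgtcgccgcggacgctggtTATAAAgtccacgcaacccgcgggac

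The Glo1 promoter held 3 GC box matches, 2 of them overlapping in the run just before its start, and 1 CCAAT match. H2-D1 alone of the 4 held a TATA match, with 2 CCAAT matches, while Ier3 held 1 GC box and 2 CCAAT matches and Zfp811 1 CCAAT match. Of all 32851 promoters in the RefSeq table, 32.7% held a GC box match, 33.9% a CCAAT match and 12.4% a TATA match. Among the 142 promoter windows that overlapped a compared region of the stretch, the shares were 57.0%, 47.9% and 9.16%. GC content ranged over the 4 from 46.4% in Glo1 to 60.8% in H2-D1, against a median of 52.4% over all promoters.

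The stretch took 1.58% of Control counts, 1.14% of PDGFB-WT counts and 1.24% of PDGFB-NLS counts. The log2 ratio to Control was -0.47 in PDGFB-WT (95% interval -0.49 to -0.46) and -0.34 in PDGFB-NLS (-0.35 to -0.33). With counts capped at 1 per peak and barcode the ratios were 0.067 and 0.060. The cap leaves a region at most as many counts as the library has barcodes, and Control had the fewest, 2226. These capped values therefore cannot show whether the direction holds. In barcodes with 1000 to under 3000 counts, a window added after the data were seen, the ratios were -0.19 and -0.043 (-0.099 to 0.012), and per kb of own peaks the PDGFB-WT ratio was 0.36. Intervals here and below use Clopper-Pearson limits on fragments, for log2 ratios set around the ratio of counts. They take fragments as independent and cover counting error only. Own peaks covered 637 kb in Control, 358 kb in PDGFB-WT and 680 kb in PDGFB-NLS, at 24.8, 31.7 and 18.3 counts per 1000000 library counts (CPM) per kb. Over all own peaks of the genome the same density was 10.5, 19.6 and 9.03. The chromosome 17 stretches on both sides, 20 to 30 Mb and 40 to 50 Mb, had log2 ratios of -0.10 and -0.05 in PDGFB-WT and of -0.05 and -0.06 in PDGFB-NLS.

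Most of the lower share lay in 2 regions near Rn18s-rs5. Regions holding at least 5% of the counts of the stretch in the mean of the libraries were called pileup regions, a rule that uses no ratio, and these 2 passed with 15.8% and 12.2%; the next region held 1.49%. Within the stretch they took 38.1% of Control counts, 21.003% of PDGFB-WT counts and 24.8% of PDGFB-NLS counts. They accounted for 82.2% of the difference of -4406 CPM between PDGFB-WT and Control, and for 88.0% of the difference of -3320 CPM between PDGFB-NLS and Control. With both left out, the stretch held 0.975%, 0.897% and 0.935% of the library counts, log2 ratios of -0.12 (-0.14 to -0.10) and -0.06 (-0.07 to -0.05).

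**Figure D1:**
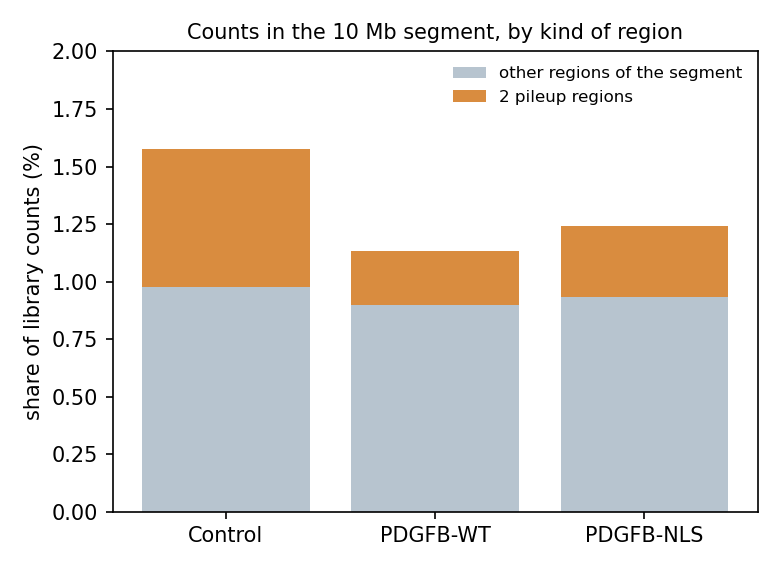
Share of library counts (%) in the stretch for each library, split into the 2 pileup regions (orange) and all other regions (grey). The grey part lies between 0.897% and 0.975% in the 3 libraries, and the orange part is 0.601% in Control against 0.238% in PDGFB-WT and 0.308% in PDGFB-NLS.

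The first pileup region, chr17:39842919-39844942, overlapped no gene of the RefSeq table and ended 1412 bp from Rn18s-rs5. It stood at 3673 CPM in Control beside 1495 in PDGFB-WT and 1352 in PDGFB-NLS, log2 ratios of -1.30 (-1.34 to -1.26) and -1.44 (-1.47 to -1.42). Control was the highest of the 3, and the PDGFB libraries were 2.46-fold and 2.72-fold lower. The second, chr17:39847476-39848855, overlapped Rn18s-rs5 and the lncRNA gene AY036118 and stood at 2333, 890 and 1733 CPM, log2 ratios of -1.39 (-1.44 to -1.34) and -0.43 (-0.45 to -0.41). Here PDGFB-NLS lay between the other libraries. By mean CPM over the libraries, these were the first and the second highest regions of the genome. The direction at both turned when repeated counts in a barcode were dropped, a setting that could not have left Control the highest. Relative to the median of all regions compared, the first region stood at -1.49 in PDGFB-WT and -1.39 in PDGFB-NLS, and at 2.03 and 1.496 with counts capped at 1 per peak and barcode. The second stood at -1.58 and -0.38 relative to that median, and at 1.64 and 1.72 with the cap. By its construction the cap lets a barcode add at most 1 count at each region. Control could thus add at most 2226 of its 12618496 capped counts there. In PDGFB-WT 2314 and 1641 barcodes had a count at the 2 regions, of 3561906 capped counts, and in PDGFB-NLS 5862 and 6357, of 15583404. Control could not stay the highest under the cap, so the turn does not bear on the direction. In barcodes with 1000 to under 3000 counts the first region stood at 1803, 1160 and 1198 CPM (Control, PDGFB-WT, PDGFB-NLS) and the second at 971, 651 and 1475 CPM, here per 1000000 counts of those barcodes, so PDGFB-NLS was the highest of the 3 at the second.

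The width of the called peaks moved with the PDGFB-NLS value. At the first region the peak was 2024 bp wide in Control, 1891 bp in PDGFB-WT and 973 bp in PDGFB-NLS, so the PDGFB-NLS count covers less sequence. Per kb of own peak the first region had log2 ratios of -1.20 in PDGFB-WT and -0.39 in PDGFB-NLS, and the second of -1.60 and -0.34. The PDGFB-WT ratio was past 2-fold on both scales at both regions, while that of PDGFB-NLS at the first region was past 2-fold only without the scaling by width. Counts in the first region were 1.57 times those in the second in Control, 1.68 times in PDGFB-WT and 0.78 times in PDGFB-NLS.

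Of the 222 stretches of 10 Mb with at least 10000 counts in each library, the stretch from 30 to 40 Mb had the lowest log2 ratio in both comparisons. A ratio at or below -0.2 was found for 0.901% of these stretches in PDGFB-WT and 0.45% in PDGFB-NLS. After pileup regions were left out of every stretch by the same rule, it ranked 15 from the lowest in PDGFB-WT and 22 in PDGFB-NLS, with the middle 95% of stretches between -0.14 and 0.32 and between -0.10 and 0.18. Pileups elsewhere did not all move the same way. Of the 10 highest regions of the genome, those on chromosomes 13 (9011230-9012290), 11 (109011245-109012308) and 3 (5860219-5861127) had PDGFB-WT log2 ratios of -1.14, -1.13 and -1.53. The 3 on chromosome 2 between 98662250 and 98667436 had PDGFB-WT ratios from 2.90 to 3.22 and PDGFB-NLS ratios from -1.60 to -1.23.

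Region by region, the stretch lay close to the genome outside a few places. The comparison took regions called in all 3 libraries that reached 100 counts in each of them: 181 here and 18411 in the genome. The median log2 ratio of the 181 was 0.08 in PDGFB-WT, beside 0.19 over the genome, and -0.07 in PDGFB-NLS, beside -0.05. Below the genome median lay 113 of 181 in PDGFB-WT and 96 of 181 in PDGFB-NLS. Over the genome, 0.266% of the regions compared were lower by 2-fold or more in PDGFB-WT and 0.239% in PDGFB-NLS. In the stretch these shares were larger, at 4 of 181 regions in PDGFB-WT and 1 of 181 in PDGFB-NLS. In PDGFB-WT these were the 2 pileup regions and 2 regions near Glo1; the next lowest had -0.84. In PDGFB-NLS it was the first pileup region, and the next lowest had -0.61.

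**Figure D2:**
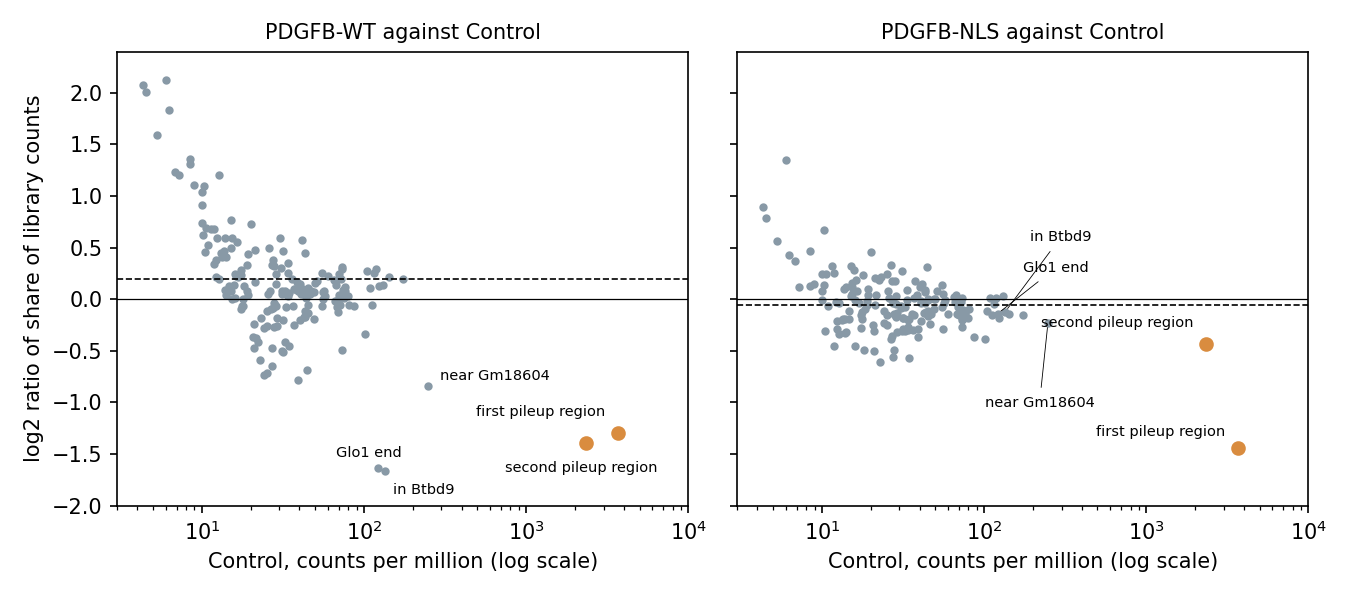
Log2 ratio of share of library counts against Control CPM (log scale) for the 181 compared regions, with PDGFB-WT on the left and PDGFB-NLS on the right. The solid line is 0, the dashed line the median of all 18411 regions compared (0.19 and -0.05), and the 2 pileup regions are orange; the Glo1 and Btbd9 regions lie near -1.6 on the left and near -0.1 on the right.

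In the other direction 13 of 181 regions were higher by 2-fold or more in PDGFB-WT and 1 in PDGFB-NLS, where the genome gave 13.5% and 2.02%. The minimum of 100 counts equals 14.3 CPM in PDGFB-WT and 3.17 in Control. A region below 14.3 CPM in Control therefore had to be higher in PDGFB-WT to be compared. All 13 were among the 33 such regions, and none of the other 148 was higher by 2-fold. The high ratios of the Zfp811 promoter region (5.29, 15.98 and 7.79 CPM in Control, PDGFB-WT and PDGFB-NLS) and of chr17:31766683-31767519 (5.98, 26.1 and 15.2 CPM, 11049 bp from the nearest gene) are of this kind. The latter was the 1 region past 2-fold in PDGFB-NLS, at log2 1.35 (1.01 to 1.70).

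Regions missing from a list weighed on the remainder. Outside the pileup regions, the difference of PDGFB-WT from Control was -784 CPM: regions called in all 3 libraries summed to 406 CPM and all others to -1191 CPM. A region not called in PDGFB-WT counts as 0 there although its true count is unknown. In PDGFB-NLS the difference was -398 CPM, to which regions called in all 3 libraries gave -467 CPM and the others 68.3 CPM.

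The first 1 Mb, around Glo1, was a place where PDGFB-WT was lower than both other libraries. Its peaks summed to 635 CPM in Control against 318 in PDGFB-WT and 666 in PDGFB-NLS, log2 ratios of -0.997 (-1.09 to -0.91) and 0.07 (0.03 to 0.11). The next 7 bins of 1 Mb ranged from -0.23 to 0.10 over both comparisons. Of the 57 regions of this 1 Mb called in both Control and PDGFB-NLS, 70.2% were missing from the PDGFB-WT list, against 40.9% of 563 in the rest of the stretch and 48.2% over the genome.

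**Figure D3:**
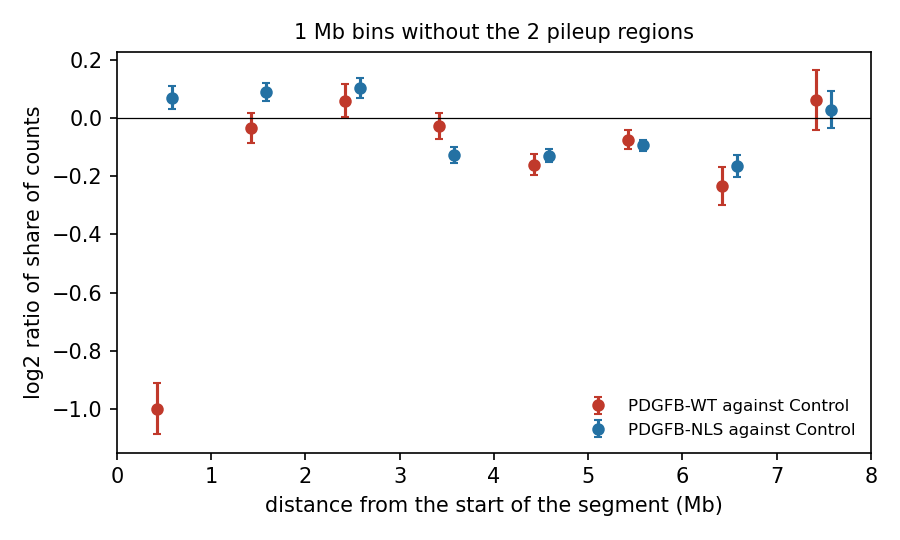
Log2 ratio of share of counts to Control in bins of 1 Mb along the stretch without the 2 pileup regions, with 95% intervals for counting error; bins past 8 Mb held too few counts to draw. The first bin lies at -0.997 in PDGFB-WT (red) and at 0.07 in PDGFB-NLS (blue), and all other points lie between -0.23 and 0.10.

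A region inside Btbd9, which encodes a BTB domain protein, had the lowest PDGFB-WT ratio of the 181 compared regions. It lies at chr17:30575782-30576819 and stood at 135 CPM in Control beside 42.5 in PDGFB-WT and 124 in PDGFB-NLS, from 4258, 298 and 3862 counts. Its log2 ratios were -1.66 (-1.91 to -1.43) and -0.12 (-0.21 to -0.03). The region over the Glo1 promoter printed above, chr17:30612175-30613062, stood at 121, 39.1 and 110 CPM. Its log2 ratios were -1.63 (-1.89 to -1.39) and -0.14 (-0.23 to -0.05). In both, Control and PDGFB-NLS lay close together and PDGFB-WT lay at under 45 CPM. A region in Dnah8, an axonemal dynein heavy chain gene, followed the same order at chr17:30657573-30658699 with 647, 39 and 481 counts, fewer in PDGFB-WT than the minimum for comparison, and a PDGFB-WT log2 ratio of -1.88 (-2.61 to -1.23), below that of the Btbd9 region.

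In bins of 100 kb, the low values in PDGFB-WT lay from 300 kb onward, apart from the first bin (-0.60), which holds the Zfand3 promoter. The bins from 500 to 600 kb and from 600 to 700 kb, which hold the Btbd9 and Glo1 regions, had log2 ratios of -1.61 (-1.81 to -1.41) and -1.52 (-1.73 to -1.31). Between 700 and 800 kb no PDGFB-WT peak was called, beside 4 peaks with 379 counts in Control. Between 800 and 900 kb a single PDGFB-WT peak held 19 counts, beside 733 in Control. The bins from 100 to 300 kb, over Zfand3 and the start of Btbd9, had PDGFB-WT ratios of 0.59 and 0.38, and the last bin of the 1 Mb had -0.48 (-0.91 to -0.07). PDGFB-NLS departed from Control too, mostly upward. From 100 to 500 kb its ratios were 0.33, 1.08, 0.81 and 0.53, and from 700 to 1000 kb 0.13, 1.25 (1.07 to 1.43) and 0.62. It was lower only in the first bin (-0.47) and from 500 to 700 kb (-0.09 and -0.15). The Zfand3 promoter region (chr17:30004181-30006369, 102, 80.8 and 78.0 CPM) was lower in both PDGFB libraries per library count, but its peaks were 2189, 1011 and 1287 bp wide, and per kb its log2 ratios were 0.78 and 0.38. Within the Btbd9 and Glo1 regions, widths ranged from 864 to 1013 bp, and per kb the PDGFB-WT ratios were -1.44 and -1.63.

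A region near the pseudogene Gm18604, chr17:36230964-36231988, was the largest single contributor after the pileup regions. It stood at 247 CPM in Control against 138 in PDGFB-WT and 210 in PDGFB-NLS, log2 ratios of -0.84 (-0.98 to -0.70) and -0.23 (-0.30 to -0.17). Relative to the median of all regions compared these were -1.03 and -0.18, and capping counts at 1 per peak and barcode turned them to 0.46 and 1.07. In barcodes with 1000 to under 3000 counts the region stood at 87.9 CPM for Control, 112 for PDGFB-WT and 174 for PDGFB-NLS, with Control the lowest. Its peak was 913 bp wide in Control and PDGFB-NLS and 1014 bp in PDGFB-WT. Its values per barcode were even in 99.5% to 99.9% of entries, against 64.8% to 92.99% at the pileup regions.

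The share of counts at the pileup regions differed among classes of barcode depth, but not in the same way in each library. In Control the deeper classes held the highest shares, while in both PDGFB libraries the shallowest class did. In Control, 77.2% of barcodes had a count at the first pileup region, with up to 824 in one barcode; the shares were 31.1% in PDGFB-WT and 53.3% in PDGFB-NLS, with up to 43 and 50. Among barcodes with 200 to under 1000 counts, the pileup regions held 0.316% of the counts in Control (0.26% to 0.38%), 0.336% in PDGFB-WT (0.326% to 0.347%) and 0.354% in PDGFB-NLS (0.333% to 0.377%), with overlapping intervals. Among barcodes with 1000 to under 3000 counts they held 0.277%, 0.181% and 0.267%. Among those with 3000 to under 10000 counts they held 0.511%, 0.201% and 0.331%, and in Control barcodes with at least 10000 counts 0.618%. Those deepest barcodes were 1324 of 2226 in Control. PDGFB-WT had no barcode of that depth, and PDGFB-NLS had too few to give a value. The part of barcode depth in the ratio at the pileup regions was not tested beyond these values.

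**Figure D4:**
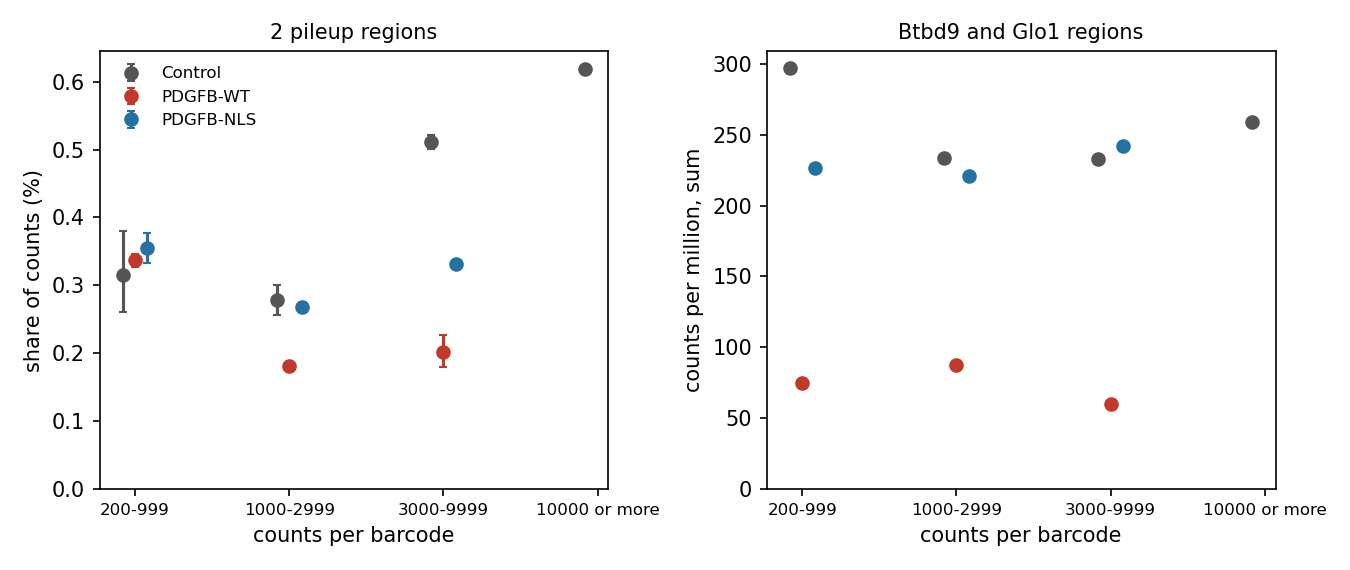
Share of counts in the 2 pileup regions (left, %, with 95% intervals for counting error) and summed CPM of the Btbd9 and Glo1 regions (right) by counts per barcode, for Control (grey), PDGFB-WT (red) and PDGFB-NLS (blue). The pileup shares lie between 0.316% and 0.354% in the shallowest barcodes and spread out with depth. On the right, drawn without intervals, PDGFB-WT lies under the other libraries in every depth class that it has.

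At the Glo1 and Btbd9 regions PDGFB-WT was low in each depth class, by varying amounts. In barcodes with 200 to under 1000 counts the Glo1 region stood at 56.6, 38.4 and 144 CPM and the Btbd9 region at 241, 36.4 and 83.1, in the order Control, PDGFB-WT, PDGFB-NLS. The Control values of that class rest on 70657 counts in all from 133 barcodes, so they are imprecise. In barcodes with 1000 to under 3000 counts the Glo1 region stood at 155 CPM in Control beside 40.02 in PDGFB-WT and 106 in PDGFB-NLS, and the Btbd9 region at 78.6, 47.2 and 115. In barcodes with 3000 to under 10000 counts the Glo1 region stood at 125, 31.7 and 112 CPM and the Btbd9 region at 108, 28.2 and 131. The PDGFB-WT values of that last class rest on 284035 counts in all from 77 barcodes, so they are imprecise too. PDGFB-WT was the lowest of the 3 libraries for both regions in each class that all 3 libraries shared. No intervals were computed for these values.

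Within each library the pileup share differed more among clusters of barcodes than the remainder of the stretch did. Barcodes of each library were clustered without the peaks of the stretch, and a cluster was named only where its marker genes were more open than in the other clusters by a median log2 of at least 1, a threshold set after the data were seen. It left unnamed Control clusters 5 and 8 (5.84% and 1.30% of barcodes) and PDGFB-WT cluster 4 (17.9%). The pileup share varied 11.9-fold over 9 clusters of Control, 4.68-fold over 4 of PDGFB-WT and 6.31-fold over 6 of PDGFB-NLS. The share of the remainder varied 1.58-, 1.33- and 1.34-fold. That is more than between the whole libraries, where the remainder was 1.09-fold lower than Control in PDGFB-WT and 1.04-fold lower in PDGFB-NLS.

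Microglia or macrophage-like clusters held 1.05% of their counts in the pileup regions in Control against 0.209% in PDGFB-WT and 0.571% in PDGFB-NLS. Astrocyte-like clusters held 0.481%, 0.395% and 0.188%, and clusters like oligodendrocyte precursor cells (OPC) 0.55%, 0.0845% and 0.168%. In all 3 of these classes Control was the highest, but the order of the PDGFB libraries changed between them. Oligodendrocyte-like clusters were low in both libraries that had one, at 0.137% in Control and 0.0906% in PDGFB-NLS. Endothelial-like clusters went the other way, at 0.293% in Control and 0.393% in PDGFB-NLS. The inhibitory neuron-like cluster of Control (28 barcodes) and its unnamed cluster 5 held 1.07% and 1.05%.

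Barcode depth differed in these classes too, with a median of 23278, 840 and 3431 counts in the microglia or macrophage-like clusters of Control, PDGFB-WT and PDGFB-NLS. Among barcodes with 1000 to under 3000 counts the astrocyte-like pileup share was 0.431% (0.362% to 0.508%, 30 barcodes) in Control beside 0.256% (0.243% to 0.268%) in PDGFB-WT and 0.189% (0.183% to 0.195%) in PDGFB-NLS. The endothelial-like share in the same window was 0.193% (0.169% to 0.218%) in Control and 0.401% (0.386% to 0.416%) in PDGFB-NLS. Control had too few microglia or macrophage-like and OPC-like barcodes in that window to give a value.

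**Figure D5:**
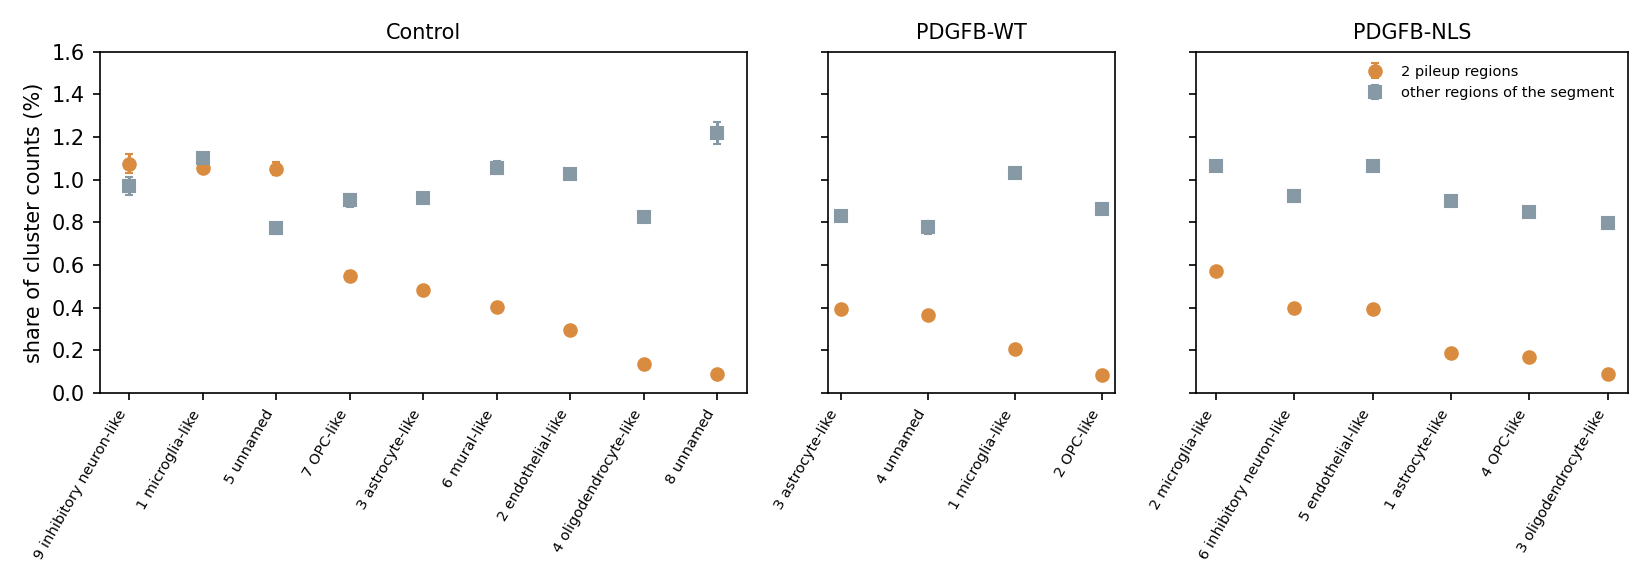
Share of cluster counts (%) in the 2 pileup regions (orange circles) and in the other regions of the stretch (grey squares) for each cluster of each library, with 95% intervals for counting error, ordered by the pileup share. The orange points run from 0.0845% to 1.07% over all clusters, and the grey points stay between 0.772% and 1.22%.

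The region near Gm18604 ran parallel to the pileup regions over clusters. Its CPM correlated with the pileup share with Pearson r 0.97 and Spearman rho 0.93 over the 9 clusters of Control, and with 0.99 and 1 over the 6 of PDGFB-NLS. It stood highest, at 618 CPM, in unnamed Control cluster 5 and lowest, at 41.9 CPM, in unnamed Control cluster 8. These are descriptions over clusters that share a library and differ in depth. For the Glo1 region the direction differed between libraries, with -0.47 on both measures in Control and 0.93 and 0.94 in PDGFB-NLS. In the 4 PDGFB-WT clusters the Glo1 region stood between 18.6 and 46.8 CPM and the Btbd9 region between 24.4 and 58.6 CPM. In PDGFB-NLS the ranges were 103 to 117 and 101 to 155 CPM, so no PDGFB-WT cluster reached the lowest PDGFB-NLS cluster. In Control the ranges were wider, 27.9 to 160 and 44.1 to 230 CPM, and unnamed cluster 5 was the lowest for both regions.

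Genes of the stretch were read from regions within 1000 bp of a gene end and set relative to the median of all 10777 genes compared, which was 0.08 for PDGFB-WT and -0.08 for PDGFB-NLS. Gene ends lower by 2-fold or more made up 0.251% and 0.0557% of these genes, and higher ones 2.24% and 0.687%. Of the neighbours of Glo1, 2 could be compared: Glo1 stood at -1.71 in PDGFB-WT and -0.06 in PDGFB-NLS, and Zfand3 at -0.41 and -0.31. Rn18s-rs5, the only listed ribosomal RNA gene, stood at -1.47 and -0.35. These were the 2 listed gene ends lower by 2-fold in PDGFB-WT, and none was in PDGFB-NLS. The median of all compared genes is 0 on this scale, and each list below is read against it.

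Chromatin and signalling genes lay around the median. Of 13 compared, 6 were below it in PDGFB-WT and 8 in PDGFB-NLS, with list medians of 0.00 and -0.11, the second turning to 0.12 with capped counts and to 0.068 per kb. Ehmt2, a histone H3 lysine methyltransferase gene, stood at -0.59 in PDGFB-WT. Daxx, which encodes a chaperone of histone variant H3.3, was the lowest in PDGFB-NLS at -0.29. That value came from the region at 1 of its ends, which also lies in Zbtb22. This region and the one at the other end, which also lies in BC051226, supplied 2 of the 10 largest differences in PDGFB-NLS (-19.2 and -12.6 CPM). Homologs of human chromosome 21 genes had list medians of 0.06 (-0.092 per kb) and 0.11 over 9 genes, with Rrp1b at 0.69 and 0.23 and Cbs, the cystathionine beta-synthase gene, at 0.59 and 0.27.

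MHC class I genes were compared at 9 of 33 listed gene ends, H2-Ke6 among them, which the name pattern took in though it encodes no class I protein. Below the median lay 7 in PDGFB-WT and 6 in PDGFB-NLS, with list medians of -0.13 and -0.08. The pseudogene H2-K2 was the lowest in PDGFB-WT at -0.87, followed by H2-Q4 at -0.63, and H2-M3 was the lowest in PDGFB-NLS at -0.54. H2-D1 stood at 0.17 and 0.03, from 114, 137 and 111 CPM, so the 3 libraries differed little at the promoter printed above. H2-Q7 stood at 1.12 in PDGFB-WT, but at 7.19 CPM in Control it had to be higher to be compared. Class I genes are near copies of each other, and how reads were shared among them is not given in the sources used here.

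Class II genes and the antigen processing genes between them were measured at few ends. Of 4 class II genes, 3 were below the median in each comparison, with list medians of -0.19 and -0.08. The first turned to 0.076 with barcodes thinned to 1000 counts and to 0.0070 per kb. H2-DMa, the only one above the median in PDGFB-WT, was measured at chr17:34118982-34120036 (105, 127 and 96.9 CPM). That region also lies inside Brd2, so it cannot be assigned to H2-DMa alone. H2-Ab1, which encodes a class II beta chain, went in different directions, at -0.50 (-0.92 to -0.10) in PDGFB-WT and 0.27 (0.06 to 0.47) in PDGFB-NLS. All 4 antigen processing genes compared were below the median in PDGFB-WT and 1 in PDGFB-NLS, with list medians of -0.24 and 0.13, the first of which turned to 0.059 with barcodes thinned to 1000 counts. Tapbp, which encodes tapasin of the peptide loading complex, was the lowest in both at -0.47 and -0.21, whereas Psmb9 and Tap1, which share 1 region, stood at -0.15 and 0.22. Microglia or macrophage-like barcodes, of a type known for class II and antigen processing genes, made up 23.0%, 31.8% and 26.2% of the barcodes in Control, PDGFB-WT and PDGFB-NLS, and their part in these values was not tested.

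In MHC class III, 17 of 20 genes were below the median in PDGFB-WT and 12 of 20 in PDGFB-NLS, but the list medians were only -0.05 and -0.07. Ltb, which encodes the cytokine lymphotoxin beta, was the lowest in PDGFB-WT at -0.86 (-1.28 to -0.47) and stood at 0.04 in PDGFB-NLS, from 28.7, 16.7 and 28.0 CPM. Ddx39b, an RNA helicase gene, followed at -0.45 over 2 regions. Of these, chr17:35242550-35243305 was called in Control and PDGFB-NLS and not in PDGFB-WT, where it counted as 0. The 97.2 CPM of Control at Ddx39b included 23.9 CPM there, while all 75.3 CPM of PDGFB-WT lay in the other region. The low value of Ddx39b therefore depends on the missing call. The heat shock genes Hspa1a and Hspa1l, which share a region, were the lowest in PDGFB-NLS at -0.42. Atp6v1g2, a subunit gene of the vacuolar proton pump, was the highest in PDGFB-WT at 0.39. Genes that share a region are counted once each, so the counts over genes exceed those over regions.

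Genes flanking class I had list medians of -0.01 and 0.03 over 21 genes (from -0.084 to 0.090 and from -0.030 to 0.12 over 6 alternatives), 11 and 10 of them below the median of all genes. Prr3 and Gnl1, which share a region, were the lowest in PDGFB-WT at -0.58. Ddr1, which encodes a collagen receptor kinase, was higher by 2-fold in both, at 1.10 (0.76 to 1.43) in PDGFB-WT and 1.05 (0.82 to 1.29) in PDGFB-NLS, from 12.7, 28.8 and 25.1 CPM. At 12.7 CPM it was below the PDGFB-WT minimum in Control, so it had to be higher in that comparison. The Ier3 promoter region stood at 34.5, 25.3 and 23.3 CPM, log2 ratios of -0.45 (-0.78 to -0.13) and -0.57 (-0.76 to -0.38). Both PDGFB libraries lay below Control there, but not by 2-fold.

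Zinc finger genes had list medians of 0.00 and 0.26 over 11 genes, with 6 below the median in PDGFB-WT and 2 in PDGFB-NLS. Zfp811 was the highest in both, at 1.52 and 0.64, and Zfp101 was the lowest in PDGFB-WT at -0.16. None of the 62 olfactory receptor genes could be compared, and 9 had a peak in any library. Between 38 and 39 Mb, PDGFB-WT alone had peaks, 6 of them with 109 counts in all.

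Several gene promoters were among the regions with the largest differences in CPM outside the pileup regions and the Glo1 interval. The region shared by Rnf5 and Agpat1 stood at 173, 198 and 156 CPM and that of Prrc2a at 119, 146 and 120 CPM. The region between Mrps18b and Ppp1r10 stood at 142, 165 and 129 CPM, and that of Mdc1, a DNA damage checkpoint gene, at 123, 134 and 109 CPM. In all 4 PDGFB-WT was the highest library in CPM, and in 3 of them PDGFB-NLS was the lowest. Relative to the median of all regions compared, PDGFB-WT stood at 0.001, 0.097, 0.020 and -0.068 in the order given. PDGFB-NLS stood at -0.10, 0.059, -0.088 and -0.13, so all 4 regions lay near that median. The 5 largest single reductions summed to -3906 CPM of -5752 CPM over all lower regions in PDGFB-WT, and to -3002 CPM of -4056 CPM in PDGFB-NLS.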

How the data were processed

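Per the labels, nuclei from gliomas were profiled with the 10x Chromium single-cell ATAC kit. The deposited matrices hold raw counts per peak and barcode made by the authors, with cellranger-atac 2.1.0 per the file headers and Cell Ranger 8 and mm10 per the submitters' processing notes. Most values are even, so fragments were taken as (value + 1) // 2. Peaks were deposited as a separate list per library. Peaks of chromosomes 1 to 19, X and Y and barcodes of at least 200 counts were kept, and no doublet caller was run. Shares, log2 ratios and intervals were computed with numpy 2.4.6 and scipy 1.17.1. The ratios and their intervals were run on simulated fragments drawn independently at each peak. These lack the high counts per barcode of the pileup regions, so the check does not cover the intervals there. Clustering in each library used components 2 to 30, 15 neighbours and Leiden resolution 0.6. The members, gene lists and marker lists were chosen with earlier results of these data known. Regions were named if they were pileup regions, among the 10 largest differences in CPM, or among the 5 highest or lowest ratios in a comparison, and so were the 2 highest and 2 lowest genes of a list. Depth limits PDGFB-WT most, with 7008951 counts. Alternatives covered the count scale, barcode depth, denominators, count minimums, pileup rules and trimming.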

Additional observations from a re-analysis of the deposited data

How the results depend on the processing

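No paired analysis was possible because each group had 1 library, and for the same reason no replicate could be left out. Values below are log2 ratios to Control, PDGFB-WT first and PDGFB-NLS second, for the share of the whole stretch and then for the share without the pileup regions. Capping counts at 1 per peak and barcode gave 0.067 and 0.060 for the whole stretch. No region then passed the pileup rule, so the share without them was again 0.067 and 0.060. By its construction this setting lets each barcode add at most 1 at a pileup region. Control, with the fewest barcodes, could not stay the highest there, so the capped values cannot show whether the direction holds. Capping also turned, relative to all regions, the first pileup region to 2.03 and 1.496, the second to 1.64 and 1.72, and the region near Gm18604 to 0.46 and 1.07. Barcodes with at least 1000 counts gave -0.54 for the whole stretch in PDGFB-WT. Thinning to 1000 counts gave -0.29 for the whole in PDGFB-NLS, and -0.094 and -0.037 without the pileup regions. Fragments gave -0.33 for the whole in PDGFB-NLS. Trimming to 31 to 39 Mb, which leaves out both the pileup regions and the Glo1 interval, gave -0.076 and -0.070 for the whole and -0.076 without pileup regions in PDGFB-WT. Means of per-barcode shares gave -0.33 and -0.25 for the whole, and -0.099 and -0.023 without. With regions called in all 3 libraries as the scale, the whole gave -0.60 in PDGFB-WT, and the rest -0.17 and -0.032.

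2 alternatives were chosen after the data were seen. In barcodes with 1000 to under 3000 counts the whole gave -0.19 and -0.043 (-0.099 to 0.012), the rest -0.086 and -0.040, and, relative to all regions, the region near Gm18604 0.051 and 0.94 and the second pileup region 0.56 in PDGFB-NLS; only 3 regions reached the minimum there, so no median or count of regions was given. Per kb of own peaks the whole gave 0.36 and -0.44 and the rest 0.72 and -0.16, values that move with how many peaks were called (358 kb covered in PDGFB-WT, 637 kb in Control).

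The median region ratio moved in PDGFB-WT to 0.17 with capping, -0.16 with the common scale and 0.14 with no minimum, and in PDGFB-NLS to 0.028 with capping and -0.024 with the common scale. The number of regions lower by 2-fold, 4 in PDGFB-WT and 1 in PDGFB-NLS, went to 2 and 0 with capping, 0 and 0 after trimming, 9 and 5 with no minimum, and 12 and 4 at a log2 ratio of -0.5. It went to 2 in PDGFB-WT with at least 300 counts and to 0 in PDGFB-NLS per kb. The Glo1 and Btbd9 regions kept their direction in PDGFB-WT in every alternative that gave a value. Of the 16 medians of gene lists, 8 kept their sign in all 6 alternatives that gave a value, and the other 8 turned in at least 1: both of the chromatin and signalling genes and of the genes flanking class I, and in PDGFB-WT those of class II (0.076 with thinning, 0.0070 per kb), antigen processing (0.059 with thinning), human chromosome 21 homologs (-0.092 per kb) and zinc finger genes (-0.10 to 0.098). The cause of the other changes was not tested.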
